A study of Sus scrofa with 4 samples.

Results

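The spliceosome removes introns with small nuclear ribonucleoproteins (snRNPs), particles built from a short noncoding RNA and a set of proteins. The genes described here mostly encode core proteins of these particles. The choice also took in LSM12, LSM14A, LSM14B, PRPF18, PRPF19, PRPF38A, PRPF38B and PRPF4B, which were placed in no snRNP group. All are counted below as snRNP genes. They were chosen by symbol: SNRPA to SNRPN, SNRNP, SF3A, SF3B, LSM and PRPF followed by a number. The rule gave 54 of the 26921 genes and loci measured. All 54 had at least 1 FPKM (fragments scaled by transcript length and library size) in every library and all 54 passed the low-count filter, so none dropped out.

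RNA came from cultured cells labelled as immature pig spermatogonia, and the series plans to use primary cells. The control group (2 libraries) carries the genotype label WT, and the other group (2 libraries) is labelled as a knockdown of ZBTB16, a zinc finger repressor that marks undifferentiated spermatogonia. The series plans the knockdown with a lentiviral short hairpin RNA. The labels do not say whether control cells received a vector, and the age of the donor animals of these cultures is not given, so the virus and the loss of ZBTB16 cannot be told apart. The protocol speaks of biological samples out of separate experiments but does not tie a library to an experiment. All p-values below rest on the spread between these 4 libraries alone, and that spread may be technical.

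U1 snRNP recognises the start of an intron and U2 snRNP its branch point, through the SF3a and SF3b complexes. The U4/U6.U5 tri-snRNP then joins and is remodelled into the catalytic spliceosome around PRPF8. A ring of Sm proteins encircles the U1, U2, U4 and U5 RNAs, and a ring of LSm proteins holds U6. The U11 and U12 snRNPs serve a rare class of introns, and U7 snRNP trims histone mRNA. Spermatogonia, like all nucleated cells, need these particles for nearly every protein-coding transcript.

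A stretch of SNRNP48, the gene of the U11 48K protein, is shown first because it belongs to a noncoding transcript whose share differed between the groups. It lies on the plus strand of the pig assembly Sscrofa11.1 at chr7:4925109-4925228 and is the first 120 bases of the long form of exon 5 in the RefSeq annotation. Capitals mark the motif TATCCTT, the core of the 5′ splice site that U11 reads in minor introns.
SNRNP48 exon 5, long form: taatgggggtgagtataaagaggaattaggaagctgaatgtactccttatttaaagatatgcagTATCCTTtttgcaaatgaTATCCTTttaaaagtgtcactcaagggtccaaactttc
The motif starts at 4925173 and again 18 bases on, at 4925191. It occurs nowhere else in the 21017 bases of the gene on the gene's strand, and 0 times on the other strand. Of 1014514 consecutive windows of 120 bases along chromosome 7, 1.84% held the motif at least once and 0.0158% held it 2 or more times on the same strand, counting either strand. As background, tandem copies of this splice-site sequence in this gene are known as an element that U11 snRNP binds, which steers the transcript towards a form that makes no protein. The match of letters is a description and no binding was measured.

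Promoters of 6 genes follow because they share a sequence feature that the gene rule did not use. Each is the 120 bases before the outermost RefSeq start (Sscrofa11.1, read 5′ to 3′ on the gene's strand), and capitals mark the ETS core CCGGAAG or its reverse complement. SNRPE-2, SNRPD1 and SNRPB fell in the knockdown, SF3A2 and SF3B4 rose, and SNRPF was not called.
SNRPE-2, chr9:64560424-64560543, plus strand: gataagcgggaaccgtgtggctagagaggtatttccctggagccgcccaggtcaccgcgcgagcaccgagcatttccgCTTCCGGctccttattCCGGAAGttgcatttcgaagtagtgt
SNRPD1, chr6:106798081-106798200, plus strand: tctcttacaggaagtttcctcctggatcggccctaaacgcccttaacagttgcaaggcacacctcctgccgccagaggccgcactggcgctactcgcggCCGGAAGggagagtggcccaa
SNRPB, chr17:33071984-33072103, plus strand: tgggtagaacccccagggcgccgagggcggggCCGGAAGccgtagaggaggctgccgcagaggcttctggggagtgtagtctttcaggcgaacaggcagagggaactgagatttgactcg
SF3A2, chr2:76404762-76404881, plus strand: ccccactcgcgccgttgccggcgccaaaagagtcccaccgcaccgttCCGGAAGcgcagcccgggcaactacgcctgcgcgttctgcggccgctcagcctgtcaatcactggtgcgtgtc
SF3B4, chr4:99123444-99123563, plus strand: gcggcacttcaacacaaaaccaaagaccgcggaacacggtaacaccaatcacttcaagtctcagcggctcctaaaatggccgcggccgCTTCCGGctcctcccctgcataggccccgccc
SNRPF, chr5:87622864-87622983, minus strand: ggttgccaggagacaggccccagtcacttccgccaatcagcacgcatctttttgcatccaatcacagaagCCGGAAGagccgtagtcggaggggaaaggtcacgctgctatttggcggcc
ETS factors are transcription factors that bind such sequences at many promoters of constitutively used genes. Within 250 bases before the start, and on both strands, the ETS core was found in 16 of 54 snRNP genes (29.6%) and in 1512 of 15280 tested genes with a promoter sequence (9.90%). It was about as frequent among the members that fell (9 of 29, 31.0%) as among those not called (5 of 16, 31.2%), and it was found in 2 of the 9 that rose (22.2%). Other motifs were near the share of all promoters. The SP/KLF box GGGCGG was in 53.7% of the members and 54.1% of all promoters, and the CCAAT box CCAAT in 31.5% and 32.0%. The NRF1 core GCATGCGC was in 3.70% and 2.92%, the TATA box TATAAA in 5.56% and 7.11%, and the CRE TGACGTCA in 1.85% and 2.05%. The median GC content of the promoters was 58.6% in the members and 60.4% in all tested genes. These shares describe the sequences and were not tested.

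The libraries held 17283536 and 15983390 expected counts in the control group and 18500447 and 16548342 in the knockdown group. The mean fragment length differed between the groups, at 326 and 327 bases in the controls against 266 and 267 in the knockdown libraries, and it cannot be told apart from the treatment. ZBTB16 itself was at 1.77 and 1.76 FPKM in the controls and at 1.37 and 1.34 in the knockdown libraries, a fold change of −0.36 ± 0.11 on the log2 scale (edgeR adjusted p = 0.00338). The edgeR fits on all libraries called it lower. It was not called by DESeq2 (DESeq2 adjusted p = 0.113) or by limma on FPKM (limma adjusted p from 0.0685 to 0.101). The germ cell marker DDX4 was at 2.3 and 1.96 FPKM in the controls and STRA8 was listed at 0 in 1 library of each group. The spermatogonial marker UCHL1 was at 122 and 120 FPKM and ID4 at 24.5 and 24.6. Of the Sertoli cell markers, FSHR was at 88.5 and 88.7 FPKM and DHH at 3.88 and 3.83, and the smooth muscle gene ACTA2 was at 3209 and 3198. The summed level of 7 Sertoli markers was 769 and 756 FPKM in the controls and 931 and 960 in the knockdown libraries. Most of this sum was CLDN11, at 587 and 571 FPKM against 691 and 721. Of the 7 markers 5 rose and 2 fell, beside 22.7% higher and 23.8% lower over all tested genes. In FPKM the lower markers were AMH, from 11.88 and 11.99 to 7.2 and 7.38, and DHH, from 3.88 and 3.83 to 1.89 and 2.68. The 12 spermatogonial markers summed to 168 and 167 FPKM against 139 and 139, of which 11 were tested, with 4 higher and 3 lower. Without UCHL1 the other 11 summed to 46.3 and 46.8 FPKM in the controls and to 50.4 and 53.4 in the knockdown libraries. Macrophage markers summed to 34.6 and 38.8 FPKM against 24.2 and 26.8. Of the 6 tested, 3 were called lower, 1 higher and 2 were not called. PTPRC went the other way in FPKM, from 1.34 and 1.38 to 1.68 and 2.37. The 7 peritubular and fibroblast markers summed to 5134.5 and 5120.6 FPKM against 5328.9 and 5249.8, with 3 higher and 3 lower. The 6 Leydig cell markers summed to 207 and 204 FPKM against 170 and 181, with 0 higher and 1 lower of 5 tested. The 4 endothelial markers summed to 11.4 and 9.87 FPKM against 9.69 and 8.71, with 0 higher and 1 lower. No marker list had a gene at 0 in all 4 libraries. The part of these shifts in the results below was not tested. In bulk RNA, fewer cells of a type and less RNA per cell cannot be told apart.

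The snRNP genes were lower more often than higher in the knockdown. A gene was called at an adjusted p under 0.05 in edgeR's quasi-likelihood test of the expected counts, fitted on 15763 genes. Of the 54 genes, 29 fell, 9 rose and 16 were not called, with a median log2 fold change of −0.18. Over all tested genes 23.8% fell and 22.7% rose, with a median of −0.00. The changes were small: the median size of a called member was 1.28-fold, against 1.24-fold over all called genes, and only LSM5 and SNRPD2 passed 2-fold. In FPKM the groups did not overlap for 47 members, 37 lower and 10 higher in the knockdown, and over all tested genes 41.4% were lower and 29.0% higher with the groups apart. The 54 genes took 0.530% and 0.531% of all expected counts in the controls and 0.504% and 0.502% in the knockdown libraries.

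**Figure D1:**
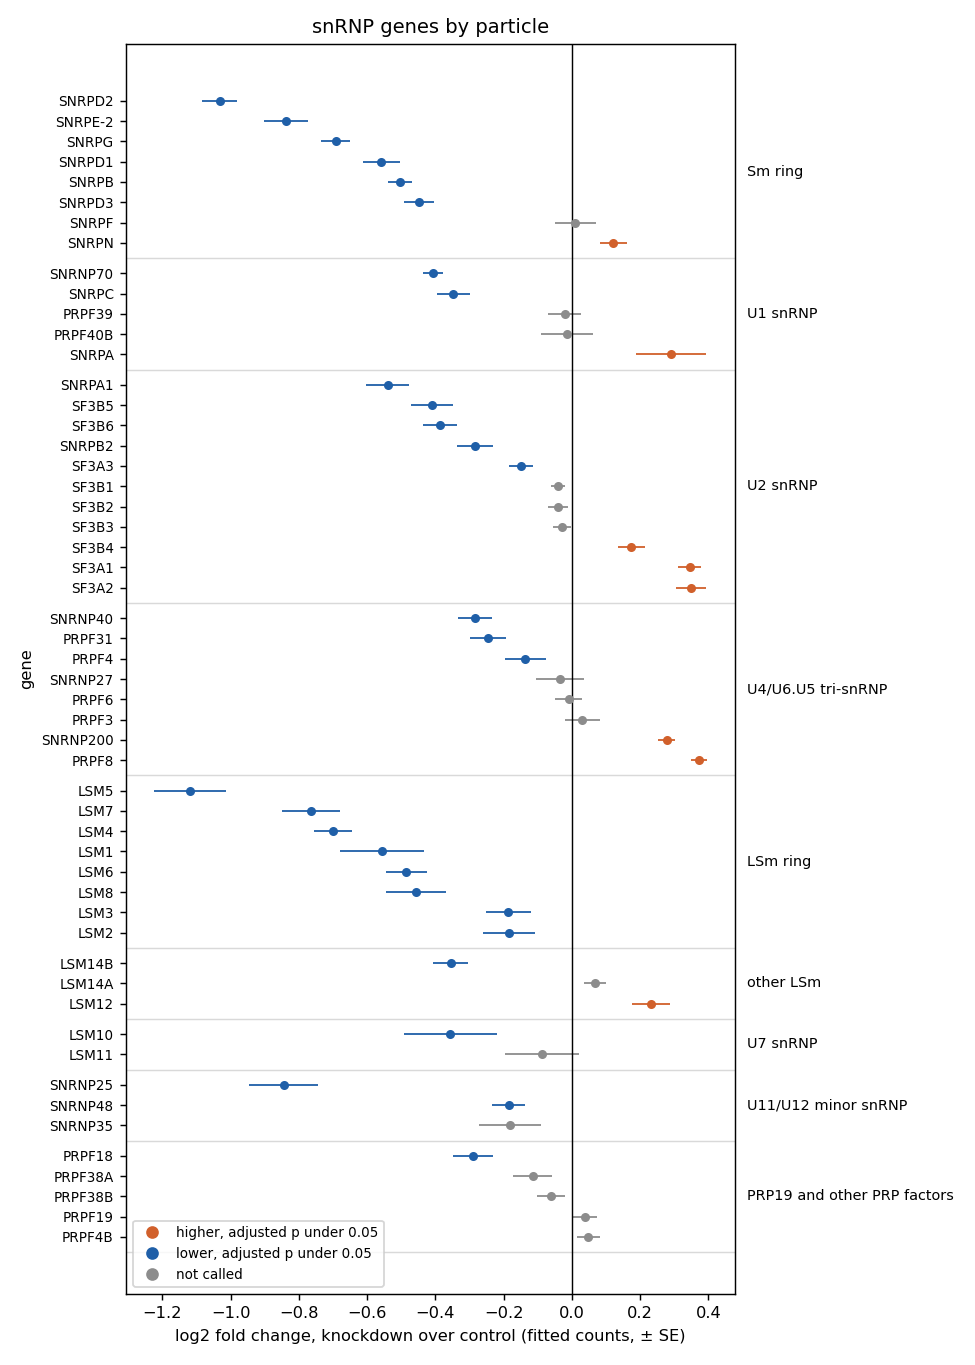
Log2 fold change (knockdown over control, from fitted counts) with its standard error for the snRNP genes, grouped by particle, with 1 of the 54 not shown. The LSm ring genes all sit to the left of 0, while the U1, U2 and tri-snRNP groups spread to both sides.

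Genes of the Sm ring were among those that changed most. Of 8 genes 6 fell, 1 rose and 1 was not called, with a median of −0.53. Over all tested genes 23.8% fell and 22.7% rose, and under 1000 bases 53.3% fell and 17.9% rose. The summed level of the group went from 1315 and 1305 FPKM to 680 and 677. As a scale for these sums, all tested genes together summed to 737360 and 739340 FPKM in the controls and to 631920 and 630050 in the knockdown libraries. SNRPD2, which with SNRPD1 forms a building block of the ring, stood at 407 and 392 FPKM in the controls and at 148 and 141 in the knockdown libraries. It fell by 1.03 ± 0.052 on the log2 scale (edgeR adjusted p = 2.63e-43). SNRPE, part of the E, F and G block, is listed as SNRPE-2 and read 315 and 328 FPKM against 123 and 128, and fell by 0.84 ± 0.064 (edgeR adjusted p = 2.42e-25). In both genes every knockdown library lay far below every control library. A processed copy of SNRPE elsewhere in the annotation could share its reads.

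SNRPG, of the same block, was at 66.5 and 63.9 FPKM in the controls and at 38.0 and 38.9 in the knockdown libraries, and fell by 0.69 ± 0.044 on the log2 scale (edgeR adjusted p = 3.71e-33). SNRPD1 was at 93.1 and 91.5 FPKM against 56.1 and 57.8, a log2 change of −0.56. SNRPB, which gives the B and B′ proteins, was at 125 and 128 FPKM against 78.5 and 72.4, a log2 change of −0.50. The groups did not overlap for any of these, nor for SNRPD3, which was at 151 and 150 FPKM against 98.3 and 103 and fell by 0.45.

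SNRPF departed from its partners. Its counts were 668 and 609 in the controls and 718 and 620 in the knockdown libraries, and the fitted log2 change was 0.01 ± 0.060 (edgeR adjusted p = 0.912). Its level in FPKM was nevertheless lower, 112 and 110 against 95.7 and 92.6. FPKM divides by an effective length, the transcript length less the mean fragment length, which grew in the knockdown libraries for a transcript of 671 bases. SNRPN, an imprinted relative of SNRPB on an unplaced scaffold, rose by 0.12 ± 0.041 in fitted log2 counts (edgeR adjusted p = 0.00843) while its FPKM overlapped (45.9 and 42.0 against 42.7 and 43.1). The proteins of SNRPB and SNRPN are nearly alike, so reads may be split between them, and both values are uncertain to that extent. SNRPN was not called without control library 2 (0.11, edgeR adjusted p = 0.073) or knockdown library 1 (0.10, edgeR adjusted p = 0.103).

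In FPKM the levels of the 7 core Sm genes, SNRPN left out, were closer to each other in the knockdown. The highest level, that of SNRPD2, was 6.11 and 6.13 times the lowest, that of SNRPG, in the controls, and 3.89 and 3.62 times in the knockdown libraries. The coefficient of variation across the 7 genes was 70.6% and 70.3% against 41.3% and 40.7%. The divisor of FPKM changed too: the effective length of SNRPD2 was 192 and 192 bases in the controls and 256 and 256 in the knockdown libraries, against 1584 and 1583 and then 1643 and 1642 for SNRPG. In expected counts SNRPD2 was 0.740 and 0.742 times SNRPG in the controls and 0.605 and 0.564 times in the knockdown libraries. Among LSM2 to LSM8, the ratio of LSM3 to LSM6 in FPKM was 11.2 and 9.68 in the controls and 9.90 and 11.3 in the knockdown libraries. Among the 6 SF3b genes the ratio was 2.12 and 2.02 against 2.07 and 2.08.

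**Figure D2:**
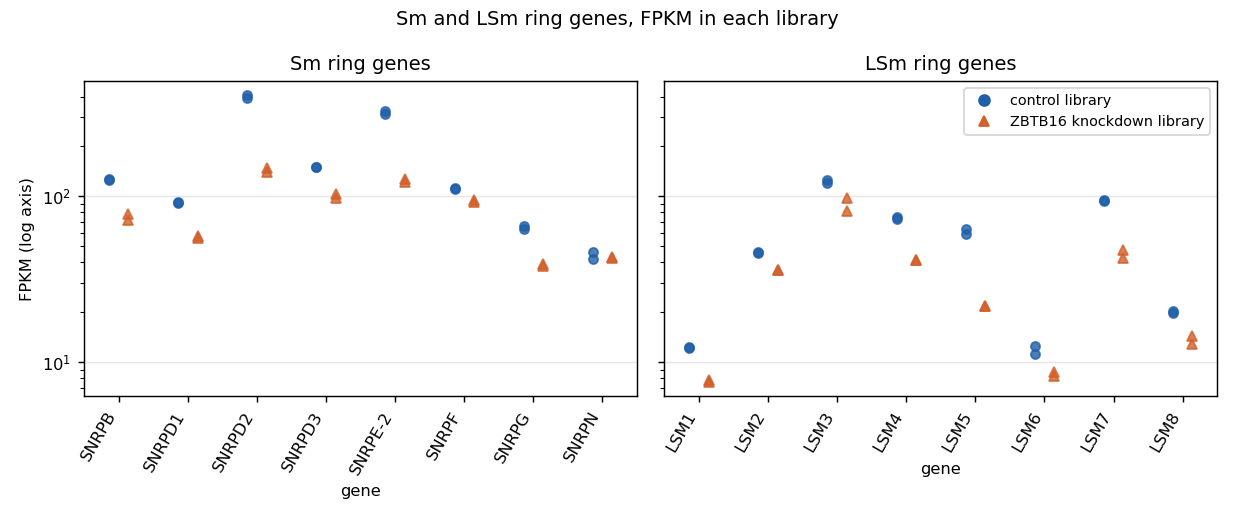
FPKM (log axis) of the Sm and LSm ring genes in each library, circles for the 2 controls and triangles for the 2 knockdown libraries. SNRPD2 and SNRPE-2 drop from the top of the Sm panel to the range of SNRPD3, SNRPN overlaps, and every LSm gene is lower in both knockdown libraries.

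All 8 genes of the LSm ring fell, with a median of −0.52 and a median length of 977 bases, and their summed level went from 447 and 439 FPKM to 258 and 270. LSM2 to LSM8 form the nuclear ring on U6 RNA, and LSM1 replaces LSM8 in a cytoplasmic ring that acts in mRNA decay. LSM5 was at 63.4 and 59.2 FPKM in the controls and at 21.9 and 21.9 in the knockdown libraries. It fell by 1.12 ± 0.11 on the log2 scale (edgeR adjusted p = 8.23e-19), the largest change of the 54 genes in fitted counts. LSM7 read 93.2 and 95.5 FPKM against 47.5 and 42.4 and fell by 0.76 ± 0.085 (edgeR adjusted p = 1.03e-14). LSM4, at 74.6 and 72.7 FPKM against 41.6 and 41.3, fell by 0.70 ± 0.056 (edgeR adjusted p = 8.34e-24). The groups of all 3 were apart.

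For comparison, 53.3% of all tested genes under 1000 bases and 43.1% of those from 1000 to under 2000 bases fell. The subunit specific to the nuclear ring and the one specific to the cytoplasmic ring both fell, LSM8 by 0.46 ± 0.087 and LSM1 by 0.56 ± 0.12 on the log2 scale. LSM1 was at 12.3 and 12.2 FPKM in the controls and at 7.81 and 7.58 in the knockdown libraries. LSM6 stood out by its length: its mean transcript is 4214 bases long, and it still fell by 0.49 ± 0.060, from 11.3 and 12.5 FPKM to 8.28 and 8.67 (edgeR adjusted p = 1.49e-12). LSM2 and LSM3 fell least, by 0.18 and 0.19, and these are the least firm calls of the ring. Once trends in both transcript length and GC were taken out, each turned, to 0.20 (edgeR adjusted p = 0.0204) and 0.22 (edgeR adjusted p = 0.00358). DESeq2 did not call either gene. LSM2 was not called in edgeR with any library left out (edgeR adjusted p from 0.0888 to 0.139), and LSM3 was at −0.02 without knockdown library 1 (edgeR adjusted p = 0.838) and −0.17 without control library 1 (edgeR adjusted p = 0.0943).

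Genes of the U1 snRNP went in different directions. Of the 6 genes 2 rose, 2 fell and 2 were not called, with a median of −0.02. Over all tested genes 22.7% rose and 23.8% fell. SNRPA, a protein that binds a stem-loop of U1 RNA, was at 21.5 and 23.5 FPKM in the controls and at 24.2 and 24.5 in the knockdown libraries. Its fitted log2 change was 0.29 ± 0.10 (edgeR adjusted p = 0.0137), on 194 and 195 counts against 260 and 235. SNRPA was not called by DESeq2 (DESeq2 adjusted p = 0.188) or by limma on FPKM (limma adjusted p from 0.139 to 0.239). It was not called without control library 1 (0.23, edgeR adjusted p = 0.161), knockdown library 1 (0.30, edgeR adjusted p = 0.0566) or knockdown library 2 (0.28, edgeR adjusted p = 0.0614). SNRPC, a protein that stabilises pairing with the intron start, was at 166 and 162 FPKM against 112 and 112, and fell by 0.35 ± 0.049 (edgeR adjusted p = 2.66e-10). Its change was −0.00 with the length trend removed (edgeR adjusted p = 0.982). PRPF40B and PRPF39, which associate with U1, had log2 changes of −0.02 and −0.02 and were not called.

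SNRNP70, which encodes the U1-70K protein, gave opposite answers by unit. Its expected counts were 4118 and 3810 in the controls and 3322 and 2899 in the knockdown libraries, and it fell by 0.41 ± 0.029 in fitted log2 counts (edgeR adjusted p = 1.30e-27). Its level in FPKM was 117 and 116 against 119 and 121. Its deposited mean transcript length went from 2367 and 2389 bases to 1771 and 1714, a shift of −26.7%. An offset for the effective length in each library gave a log2 change of 0.10 (edgeR adjusted p = 0.0071). The gene has 10 transcripts, of which 9 are assembled forms with no RefSeq model. A change in its transcripts and a change in how reads were shared among them cannot be told apart here.

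The U2 snRNP had 3 genes that rose, 5 that fell and 3 that were not called, with a median of −0.04. Over all tested genes 22.7% rose and 23.8% fell. Within SF3a, which joins the U2 core to SF3b, the subunits moved apart in sign but closer in level. SF3A1 was at 49.3 and 48.8 FPKM in the controls and at 60.4 and 60.1 in the knockdown libraries, and rose by 0.35 ± 0.034 on the log2 scale (edgeR adjusted p = 4.85e-18). SF3A2 was at 35.4 and 33.0 FPKM against 44.3 and 43.9 and rose by 0.35 ± 0.045 (edgeR adjusted p = 7.24e-12). SF3A3, the most abundant of the 3, was at 93.2 and 94.9 FPKM against 79.5 and 82.0 and fell by 0.15 ± 0.034 (edgeR adjusted p = 1.04e-04). The ratio of the highest to the lowest SF3a gene went from 2.63 and 2.87 to 1.79 and 1.87. The fall of SF3A3 was not called with the length trend removed (edgeR adjusted p = 0.778), whereas the rises of SF3A1 and SF3A2 were called under each of the 16 alternative fits.

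SF3b clamps the branch point helix. Its large subunits SF3B1, SF3B2 and SF3B3 had log2 changes of −0.04, −0.04 and −0.03 and were not called. With the length trend removed, SF3B1 was called lower at −0.15 (edgeR adjusted p = 7.92e-12). SF3B3 was also called lower in that fit, at −0.086 (edgeR adjusted p = 0.00371). SF3B1 held the most counts of the 54 genes, 13436 and 12100 in the controls and 13585 and 12237 in the knockdown libraries. The small subunits SF3B5 and SF3B6 fell, by 0.41 ± 0.061 and 0.39 ± 0.050. SF3B5, of 642 bases, was at 131 and 141 FPKM against 81.4 and 88.8, with the groups apart. With the length trend removed neither SF3B5 nor SF3B6 was called, at −0.06 (edgeR adjusted p = 0.466) and −0.08 (edgeR adjusted p = 0.178). SF3B4 rose by 0.17 ± 0.040 (edgeR adjusted p = 1.11e-04), but limma on FPKM did not call it (limma adjusted p from 0.155 to 0.266).

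The U2 core proteins A′ and B″ bind a stem-loop of U2 RNA as a pair. SNRPA1, which encodes A′, was at 49.99 and 51.4 FPKM in the controls and at 34.0 and 30.1 in the knockdown libraries, and fell by 0.54 ± 0.062 on the log2 scale (edgeR adjusted p = 6.74e-14). SNRPB2, which encodes B″, fell by 0.28 ± 0.052 in fitted log2 counts (edgeR adjusted p = 1.17e-06), but its FPKM overlapped, at 97.1 and 94.3 against 96.7 and 97.7. It was not called with the length trend removed (0.025, edgeR adjusted p = 0.751) or with an offset for effective length (0.073, edgeR adjusted p = 0.274). As for SNRNP70, the deposited mean length of SNRPB2 moved, from 907 and 936 bases to 746 and 736.

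In the tri-snRNP 2 genes rose, 3 fell and 3 were not called, with a median of −0.02, and the summed level stayed near 280 FPKM (285 and 284 against 281 and 283). Over all tested genes 22.7% rose and 23.8% fell. PRPF8, the scaffold of the catalytic centre, was at 53.7 and 54.2 FPKM in the controls and at 69.1 and 68.6 in the knockdown libraries. It rose by 0.37 ± 0.023 on the log2 scale (edgeR adjusted p = 1.96e-34), the largest rise of the 54 genes in fitted counts though not in FPKM, where the ratio of SF3A2 was higher (1.29 against 1.28), nor with the length trend removed. SNRNP200, the helicase that unwinds U4 from U6, was at 44.4 and 44.1 FPKM against 53.1 and 51.9 and rose by 0.28 ± 0.025 (edgeR adjusted p = 2.87e-20). Both genes are long, with mean transcripts of 7311 and 6891 bases, and both had their groups apart. Their rises were 0.22 and 0.13 with the length trend removed, and both were still called.

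SNRNP40, a WD-repeat protein of U5, was at 38.3 and 37.6 FPKM in the controls and at 28.5 and 31.0 in the knockdown libraries, and fell by 0.28 ± 0.050 on the log2 scale (edgeR adjusted p = 3.39e-07). PRPF31, which holds U4 and U6 together, fell by 0.25 ± 0.053, and PRPF4 by 0.14 ± 0.060 (edgeR adjusted p = 0.0499), right at the threshold. Without control library 1 PRPF4 was at −0.10 (edgeR adjusted p = 0.335), and without knockdown library 1 at −0.07 (edgeR adjusted p = 0.494). PRPF31 was not called with the length trend removed (edgeR adjusted p = 0.072). PRPF3, PRPF6 and SNRNP27 had log2 changes of 0.03, −0.01 and −0.03 and were not called. The direction of SNRNP27 varied with the fit, and its FPKM was 38.2 and 41.1 against 31.0 and 33.0. It was called lower by limma on FPKM (limma adjusted p from 0.0096 to 0.0383). An offset for effective length also called it lower (−0.26, edgeR adjusted p = 0.00467). With the length trend removed it was called higher (0.17, edgeR adjusted p = 0.0465).

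The minor spliceosome was represented by 3 proteins of the U11 particle. SNRNP25 was at 29.3 and 32.6 FPKM in the controls and at 15.7 and 15.04 in the knockdown libraries, and fell by 0.84 ± 0.10 on the log2 scale (edgeR adjusted p = 4.10e-13). SNRNP48 fell by 0.19 ± 0.049 in fitted log2 counts (edgeR adjusted p = 6.95e-04), while its FPKM overlapped, at 21.7 and 24.3 against 21.0 and 23.4. It was not called without control library 2 (−0.11, edgeR adjusted p = 0.133) or knockdown library 1 (−0.14, edgeR adjusted p = 0.0901). SNRNP35, at 6.10 and 6.12 FPKM against 5.05 and 5.40, had a log2 change of −0.18 and was not called (edgeR adjusted p = 0.0933).

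SNRNP48 has a coding transcript of 2232 bases and a noncoding one of 5731 bases, which holds the long exon 5 with the paired motif printed above. That exon spans 1872 bases, 1683 more than its coding form. From the deposited mean length, which weights the 2 transcripts by abundance, the noncoding form made up 31.1% and 30.0% of the gene's transcripts in the controls and 21.99% and 18.7% in the knockdown libraries. The means were 30.6% ± 0.77 and 20.3% ± 2.35 (SD, n = 2 each). The groups were apart, and an exact two-sided permutation test of 2 against 2 cannot go below 0.333. In FPKM the noncoding form was at 6.75 and 7.29 against 4.62 and 4.37, and the coding form, whose groups overlap, at 14.9 and 17.0 against 16.4 and 19.03. An offset for effective length gave a log2 change of −0.00 for the whole gene (edgeR adjusted p = 0.994).

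Among the other genes, LSM10 of the U7 ring fell by 0.36 ± 0.14 on the log2 scale, on 144 and 133 counts in the controls and 113 and 112 in the knockdown libraries, and its partner LSM11 had a change of −0.09. LSM10 was not called without control library 1 (edgeR adjusted p = 0.0921), control library 2 (edgeR adjusted p = 0.0806) or knockdown library 1 (−0.28, edgeR adjusted p = 0.161). LSM14B, an RNA granule protein related to LSM14A, was at 26.5 and 25.1 FPKM against 18.99 and 19.8 and fell by 0.36 ± 0.051 (edgeR adjusted p = 8.37e-10). LSM14A had a change of 0.07 and LSM12 rose by 0.23 ± 0.055, a rise that limma on FPKM did not call (limma adjusted p from 0.064 to 0.14). PRPF18, a factor of the second splicing step, fell by 0.29 ± 0.058, from 28.9 and 31.9 FPKM to 23.4 and 22.5. PRPF19, a ubiquitin ligase at the heart of its own complex, was at 104 and 104 FPKM against 102 and 98.2. Its log2 change was 0.04 and it was not called, and PRPF4B, PRPF38A and PRPF38B were likewise not called. With the length trend removed PRPF19 was called higher (0.20, edgeR adjusted p = 1.65e-07). PRPF38A was called lower with an offset for effective length (−0.14, edgeR adjusted p = 0.0453). PRPF38B was called lower with length and GC trends removed (−0.14, edgeR adjusted p = 0.00363).

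Direction varied with transcript length, both in these genes and over all tested genes. Under 1000 bases, 14 of 16 members fell and 1 rose, SNRPA, with a median of −0.40. Of all tested genes in that class, 53.3% fell and 17.9% rose, with a median of −0.36. From 1000 to under 2000 bases, 9 of 13 members fell and 1 rose (median −0.29), against 43.1% and 9.0% of all genes (median −0.19). From 2000 to under 3000 bases, 4 of 12 fell and 4 rose (median 0.00), against 25.3% and 14.4% (median −0.04). At 3000 bases or more, 2 of 13 fell and 3 rose (median −0.03), against 11.5% and 32.1% (median 0.09). Spearman's rho between length and log2 change was 0.58 across the 54 genes and 0.37 across the 15763 tested genes, as a description across genes of the same 4 libraries. The mean fragment length differs between the same groups, and its part in this relation was not tested.

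**Figure D3:**
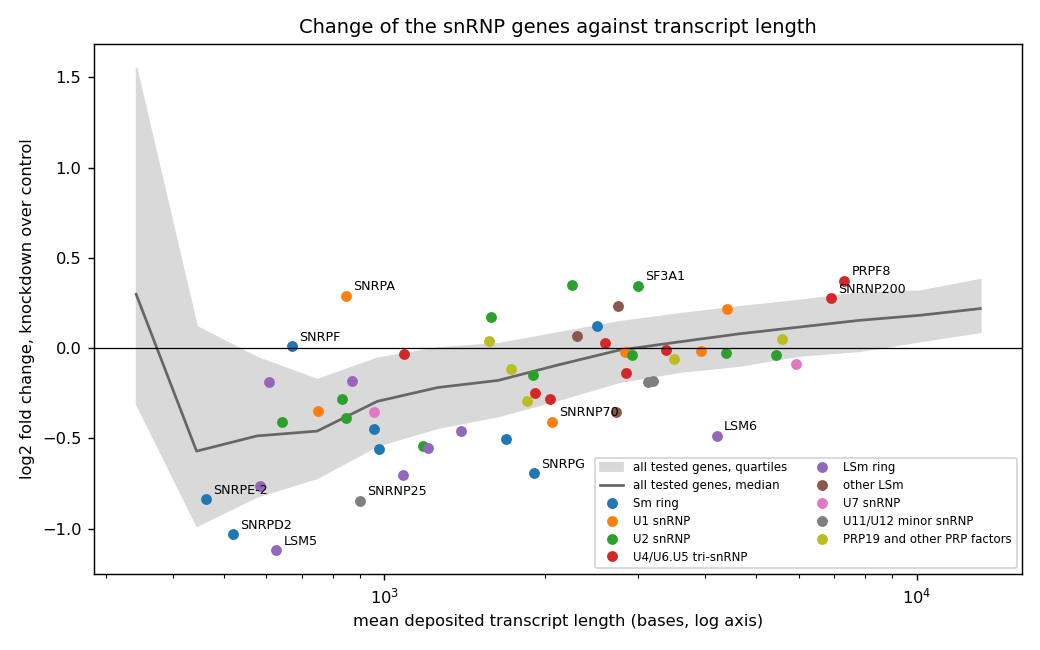
Log2 fold change of the 54 genes (points, coloured by particle) against mean transcript length in bases (log axis), over the median and quartiles of all tested genes in length bins of at least 20 genes. SNRPD2, LSM5 and LSM6 lie below the band for their length, and SNRPA and SNRPF above the median.

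With a smooth trend of length removed in each library, 22 members fell and 13 rose, against 21.6% and 19.3% of all genes. In the shortest class 7 of 16 members then fell in place of 14, and 2 rose. Of all 1119 tested genes in that class, 396 then fell in place of 596, and 204 rose. In the fit with an offset for the deposited effective length, 28 fell and 10 rose, against 23.9% and 22.5%, and once length and GC trends were both taken out, 25 fell and 15 rose, against 20.0% and 19.3%. In the fit with the length trend removed, 6 of 8 LSm genes (median −0.42) and 6 of 8 Sm genes (median −0.33) still fell. LSM5 was then at −0.78, SNRPD2 at −0.82 and SNRPE-2 at −0.78. SNRPF was called higher in that fit, at 0.37 (edgeR adjusted p = 2.85e-08), and SNRPA was at 0.59. With the effective length offset SNRPF was instead called lower, at −0.19 (edgeR adjusted p = 0.0133). SNRPA was not called with that offset (0.17, edgeR adjusted p = 0.2).

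**Figure D4:**
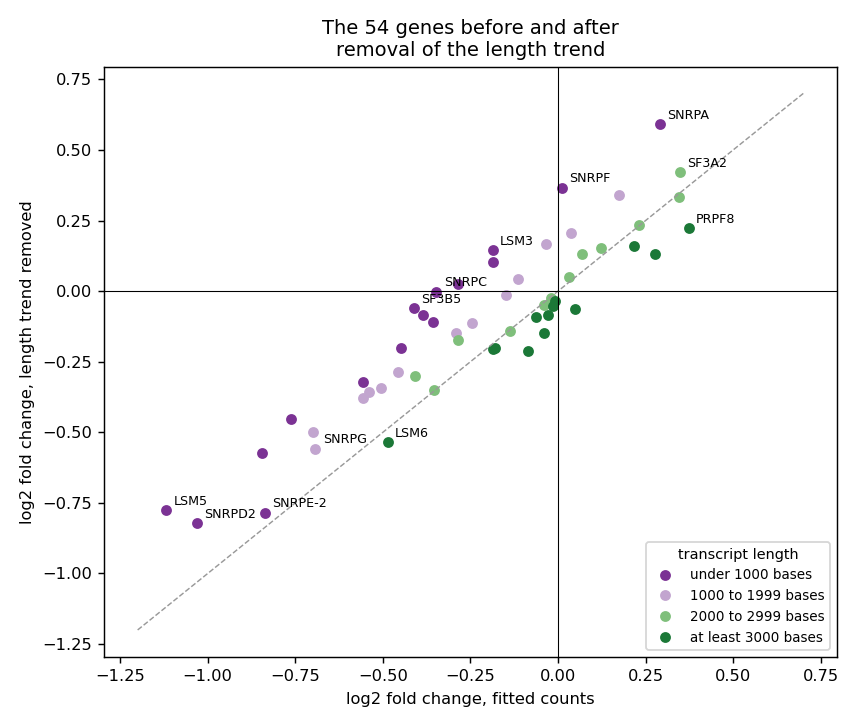
Log2 fold change of each of the 54 genes from fitted counts (x axis) and with the length trend removed (y axis), coloured by length class, and the dashed line marks equal values. Genes under 1000 bases move up by the correction, LSM5, SNRPD2 and SNRPE-2 remain at the bottom, and SNRPF and SNRPA lie above 0.

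The call stayed the same in 21 of the 38 called genes under each of the 16 alternative fits. Over all 6710 called genes present in every fit, 38.2% kept their call. The 17 that fell were SNRPB, SNRPD1, SNRPD2, SNRPD3, SNRPE-2 and SNRPG of the Sm ring, LSM1 and LSM4 to LSM8 of the LSm ring, and LSM14B, PRPF18, SNRNP25, SNRNP40 and SNRPA1. The 4 that rose were PRPF8, SF3A1, SF3A2 and SNRNP200.

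Of the 38 members with 2 or more transcripts, 3 had a deposited mean length that was shorter by at least 10% with the groups apart, and 0 were longer. Of 11303 tested genes with several transcripts, 2.69% were shorter and 2.61% longer by this measure, which was chosen after the values were seen. The 3 are SNRNP70 (−26.7%), SNRPB2 (−19.5%) and SNRNP48 (−10.8%). SNRPB lay just outside in the other direction, at 9.5%, from 1619 and 1610 bases to 1755 and 1782. On the shorter side the next gene was LSM14A, at −5.89%. In all 3 the FPKM ratio between the groups was closer to 1 than the ratio of fitted counts. All 3 fell in counts, and a shorter length raises FPKM, so this is not a separate observation.

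**Figure D5:**
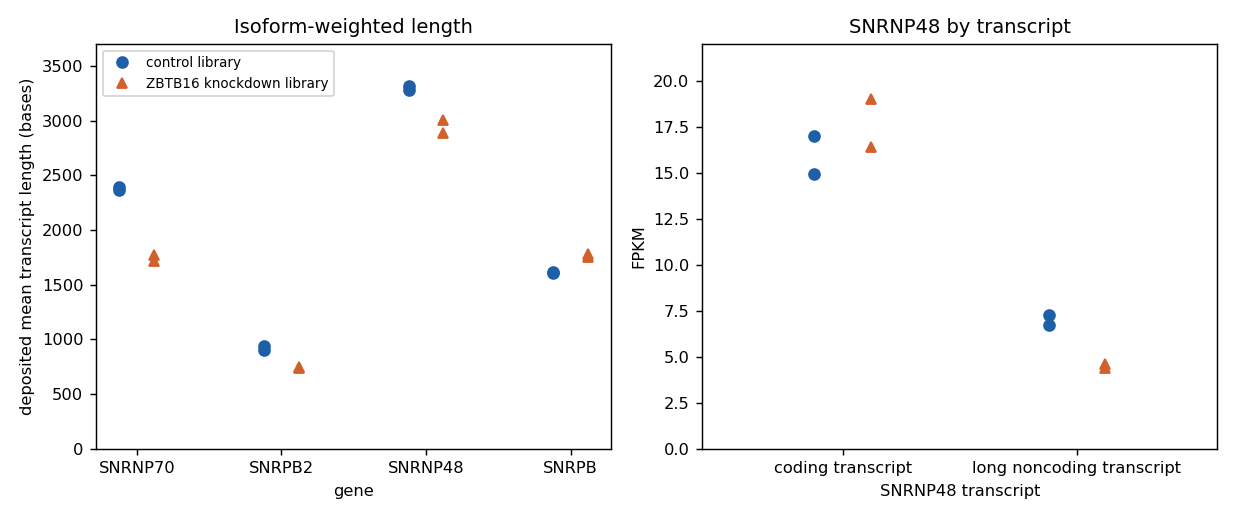
Left, deposited mean transcript length in bases for SNRNP70, SNRPB2, SNRNP48 and SNRPB in each library. Right, FPKM of the coding and the long noncoding transcript of SNRNP48, where the noncoding form is lower in both knockdown libraries and the coding form overlaps.

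Other spliceosome genes were taken from a list of 54 symbols, of which 52 were found and tested. Of these 24 fell, 6 rose and 22 were not called, with a median of −0.09, beside 23.8% lower and 22.7% higher over all tested genes. U2AF1, which reads the AG at the intron end, was at 103 and 110 FPKM in the controls and at 54.5 and 51.8 in the knockdown libraries, and fell by 0.90 ± 0.045 on the log2 scale (edgeR adjusted p = 8.11e-44). Its partner U2AF2 fell by 0.33 ± 0.027, from 171 and 169 FPKM to 144 and 144. SF1, which holds the branch point before U2 arrives, was at 81.2 and 79.0 FPKM against 97.1 and 96.8 and rose by 0.32 ± 0.028 (edgeR adjusted p = 2.03e-21). RBM8A, of the exon junction complex, fell by 0.60 ± 0.042 (edgeR adjusted p = 6.16e-29).

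Of 29 genes for snRNP assembly and processing of the small nuclear RNAs, 13 fell, 9 rose and 7 were not called, with a median of −0.12, beside the same 23.8% and 22.7% of all tested genes. SMN1, whose protein loads Sm rings onto RNA, was at 40.9 and 42.7 FPKM in the controls and at 57.8 and 57.6 in the knockdown libraries, and rose by 0.38 ± 0.055 on the log2 scale (edgeR adjusted p = 9.52e-10). WDR77, the partner of PRMT5 in Sm protein methylation, fell by 0.31 ± 0.048 (edgeR adjusted p = 9.00e-09). The cap-binding proteins went in opposite directions: NCBP1 rose by 0.30 ± 0.045 (edgeR adjusted p = 4.47e-09) and NCBP2 fell by 0.56 ± 0.047 (edgeR adjusted p = 1.50e-22). NCBP2 was at 10.3 and 10.4 FPKM against 6.94 and 6.75, on a mean transcript of 8288 bases.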

How the data were processed

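RNA was sequenced from 4 libraries, 2 per group. Per the labels' protocols, SOAPnuke 2.1.0 cleaned the reads, HISAT2 2.2.1 placed them on Sscrofa 11.1, Bowtie2 2.3.5 mapped them to transcripts and RSEM 1.3.3 counted them. The authors deposited expected counts, which share reads among transcripts and so need not be whole. They also deposited FPKM, which divides by the effective length, and TPM, which was not used. The strand setting of the counting is not given in the labels used here, and overlapping or antisense genes may share reads.

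Expected counts were rounded and fitted with edgeR 4.0.16 in R 4.3.3 (TMM scaling, filterByExpr with a minimum count of 10 and total of 15, two-sided quasi-likelihood test, Benjamini-Hochberg adjusted p under 0.05 over 15763 genes). The fit was tested on simulated data. The alternatives were DESeq2 1.42.0, limma 3.58.1 on log2(FPKM + 1) or log2(FPKM + 0.1), other scalings and filters, a replicate block, each library left out, an effective length offset, and smooth trends (mgcv 1.9.3) of length, with or without GC content, removed. Length is the mean deposited length over the libraries. Fragment length was read from the gap between deposited lengths. Positions and sequences come from RefSeq on Sscrofa11.1, which matched all 54 genes, and promoters are 250 bases before the outermost start. The common biological coefficient of variation was 0.0129. Between libraries of a group, chi-square per degree of freedom was 1.15 in the controls and 1.26 in the knockdown, above sampling noise alone.

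Every member could be named, but 1 is counted in the totals and not reported here by itself. Of the other spliceosome and assembly lists the text names ZBTB16 and up to 4 genes each, taken by smallest p among genes whose higher group averages 1 FPKM or more. The closing section names further genes of these lists, chosen after their values were seen. The members and lists were chosen with earlier results of these data known.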

Additional observations from a re-analysis of the deposited data

How the results depend on the processing

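With 9 members higher in the count fit, limma gave 5 on log2(FPKM + 1), 5 on log2(FPKM + 0.1) and 4 with no filter on low FPKM, removal of the length trend with the replicate block gave 14, removal of length and GC trends 15, and a minimum of 1.2-fold 5. The 14 members under 1000 bases that fell became 7 with the length trend removed, 7 with the block added and 7 with length and GC trends removed. Of all 1119 tested genes in that class, the 596 that fell became 396 with the length trend removed. Other spliceosome genes that rose (6) were 2 by DESeq2, 10 with RLE size factors, 3, 3 and 2 by the limma fits, 11 with the length trend removed, 11 with the block added, 10 at an unadjusted p under 0.05 and 2 at 1.2-fold, and those that fell (24) were 15 by DESeq2 and 12 at 1.2-fold. Assembly genes that rose (9) were 4 by limma with no filter and 2 at 1.2-fold, and those that fell (13) were 7 by DESeq2, 8 with length and GC trends removed and 7 at 1.2-fold. The cause of these shifts was not tested. Leaving out each library in turn gave 7 to 9 members higher and 24 to 28 lower. Whether the replicate numbers pair the libraries is not known. Deviations from the group mean in control library 1 and knockdown library 1 had a correlation of 0.00036. This cannot decide it, because libraries of a group differed by little beyond sampling noise. With the number as a block 9 members rose and 30 fell, and 10 of the other spliceosome genes rose. No alternative moved the members that fell by over 1.5 times, nor the 3 long members that rose.

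Directions turned for these genes. With the length trend removed, without and with the block, the log2 change was 0.10 and 0.11 for LSM2, 0.14 and 0.14 for LSM3, 0.041 and 0.041 for PRPF38A, −0.063 and −0.064 for PRPF4B, 0.17 and 0.17 for SNRNP27, 0.025 and 0.025 for SNRPB2 and 0.053 and 0.053 for GEMIN2. With length and GC trends removed it was 0.014 for LSM10, 0.20 for LSM2, 0.22 for LSM3, 0.019 for PRPF40B, −0.060 for PRPF4B, 0.037 for PRPF6, 0.018 for SF3B2, 0.072 for SF3B5, 0.17 for SNRNP27, 0.0094 for SNRPB2 and 0.063 for SNRPC. With the effective length offset it was 0.0030 for SF3B1, 0.0013 for SF3B3, 0.10 for SNRNP70, 0.073 for SNRPB2 and −0.19 for SNRPF. In the limma fits it was −0.049, −0.049 and −0.049 for PRPF19, 0.049, 0.049 and 0.049 for SNRNP70, 0.022, 0.022 and 0.022 for SNRPB2, −0.24, −0.24 and −0.24 for SNRPF, and −0.034, −0.034 and −0.034 for SNRPN. Of those called in the count fit, LSM3 was called in the opposite direction with the length trend removed and the block. So were LSM2 and LSM3 with length and GC trends removed, and SNRNP70 with the effective length offset. SNRNP27 and SNRPF were not called in the count fit. SNRNP27 was called higher in each fit with a trend removed, and SNRPF lower with the effective length offset and in each limma fit. With a library left out the change ran from −0.23 to 0.034 for LSM11, from −0.0052 to 0.14 for LSM14A, from −0.049 to 0.0031 for PRPF39, from −0.052 to 0.017 for PRPF40B, from −0.069 to 0.043 for PRPF6, from −0.098 to 0.025 for SNRNP27 and from −0.017 to 0.034 for SNRPF. A length shift of at least 5% in place of 10%, chosen after seeing the data, gave 5 shorter members, and at least 20% gave 1.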

Other observations

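Of 9 genes of the complex that loads Sm rings onto the small nuclear RNAs, 3 rose, 5 fell and 1 was not called. Over all tested genes 22.7% rose and 23.8% fell. From 1000 to under 2000 bases, the class of SMN1, GEMIN2, GEMIN6, GEMIN7, GEMIN8 and STRAP, 9.0% rose and 43.1% fell. The complex was chosen after its values were seen. SMN1 rose, as given above. GEMIN5, which recognises the RNAs, was at 9.03 and 9.51 FPKM in the controls and at 10.45 and 11.1 in the knockdown libraries, and rose by 0.26 ± 0.051 on the log2 scale (edgeR adjusted p = 5.73e-06). DDX20, a helicase of the complex, rose by 0.20 ± 0.052 (edgeR adjusted p = 5.29e-04). GEMIN7 was at 9.70 and 7.77 FPKM against 4.13 and 4.84 and fell by 0.82 ± 0.14 (edgeR adjusted p = 7.25e-08). GEMIN8 fell by 0.54 ± 0.11 (edgeR adjusted p = 1.65e-05) and GEMIN6 by 0.42 ± 0.091 (edgeR adjusted p = 2.68e-05). GEMIN4, with a mean transcript of 5072 bases, fell by 0.18 ± 0.071 (edgeR adjusted p = 0.0256), and was not called without control library 1 (−0.05, edgeR adjusted p = 0.69), knockdown library 1 (−0.23, edgeR adjusted p = 0.0757) or knockdown library 2 (−0.14, edgeR adjusted p = 0.246). Nor was it called by DESeq2 (adjusted p = 0.284), by limma on FPKM (adjusted p from 0.147 to 0.291) or with an offset for effective length (edgeR adjusted p = 0.0852). STRAP fell by 0.17 ± 0.031 (edgeR adjusted p = 1.94e-06), and was not called with the length trend removed (−0.033, edgeR adjusted p = 0.428). GEMIN2, which cradles the Sm proteins, had a change of −0.11 (edgeR adjusted p = 0.226) in counts, while its FPKM was 23.8 and 23.2 against 16.3 and 15.6. With the length trend removed GEMIN6, GEMIN7 and GEMIN8 were still called lower. GEMIN8 was not called with length and GC trends removed (edgeR adjusted p = 0.0561).

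ZMAT5, which encodes another protein of the U11 particle beside SNRNP25, was at 25.8 and 30.6 FPKM in the controls and at 12.5 and 13.6 in the knockdown libraries. It fell by 0.96 ± 0.11 on the log2 scale (edgeR adjusted p = 8.99e-15), with the groups apart and a mean transcript of 930 bases. ZMAT5 was also chosen after its values were seen. Under 1000 bases 53.3% of all tested genes fell and 17.9% rose. In the same list PDCD7, ZCRB1, RNPC3 and ZRSR2 also belong to the minor spliceosome and were not called. Their log2 changes were −0.16, 0.08, 0.07 and −0.30 (edgeR adjusted p from 0.144 to 0.444).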
